A study of Mus musculus with 8 samples.

Results

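The genes described here are 50 listed components of the Wnt pathway (ligands, receptors and co-receptors, cytoplasmic components, inhibitors, nuclear factors and secretion machinery), found on the Illumina MouseRef-8 v2.0 array by the gene symbol of each probe. Of the 50 genes, 47 had a probe, whereas Fzd5, Axin1 and Tcf7 had none. The 47 genes were represented by 71 of the 25697 probes of the array. Signal was sufficient for testing at 45 of these probes, which belonged to 33 genes, among 13131 probes tested in all. Where a gene had several probes, the one of highest mean signal represents it and is called its main probe.

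RNA from mouse epidermis was hybridised to 8 arrays. Wild-type and REDD1 KO mice were each treated with vehicle or with FA, and each of the 4 combinations had 2 arrays. Single arrays are written as, for example, WT vehicle 1 or KO FA 2. FA is fluocinolone acetonide, a topical glucocorticoid, given once at 2 µg per animal in acetone, and the vehicle was acetone alone; skin was taken 24 h later. All animals were females of 7 weeks in the resting phase of the hair cycle (telogen), with shaved back skin, and per the methods of the study the epidermis was scraped off mechanically and each array held RNA of an individual animal. REDD1 KO mice are germline knockouts, in which a LacZ and neo cassette stands in for the second exon of Ddit4 (the gene encoding REDD1, a stress-induced inhibitor of mTOR signaling), and the wild-type controls were isogenic. The methods name a B6x129 background for both, while the sample labels say B6D2, ear epidermis and untreated controls. The methods also give Taconic as the source of the wild-type females and Lexicon Genetics as the maker of the REDD1 KO mice. Effects of genotype and of the source of the animals can therefore not be told apart.

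Wnt ligands are secreted, lipid-modified proteins that bind Frizzled receptors together with the co-receptors Lrp5 and Lrp6. In the canonical branch this stops the degradation of β-catenin, which then switches on target genes with Tcf and Lef factors, whereas the other branches act on cell polarity and calcium without β-catenin. In skin, Wnt signaling maintains epidermal and hair follicle stem cells and drives the entry of resting follicles into growth, and secreted antagonists keep it in check.

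Array quality was even: 44.5% to 46.7% of the probes were detected, and the log2 signals of replicate arrays correlated with r = 0.976 to 0.99 across probes. Ddit4, the deleted gene, had log2 signals of 10.08 and 9.16 in wild-type vehicle, 10.98 and 11.14 in wild-type FA, 7.42 and 7.09 in REDD1 KO vehicle, and 7.88 and 8.35 in REDD1 KO FA. It was thus lower in every REDD1 KO array than in every wild-type array, although the position of the probe relative to the deleted part is not given. The basal keratinocyte markers Krt5 and Krt14 were detected on all arrays. The summed linear signal of 6 markers of that type was 38139 and 43077 in wild-type vehicle and 34803 and 35067 in wild-type FA. It was 36758 and 38921 in REDD1 KO vehicle, and 38951 and 29989 in REDD1 KO FA. With FA, 0 of the 6 were called in either genotype. Marker sums of several other cell types moved more with the groups. The summed linear signal of 5 Langerhans cell markers was 8710 to 11476 in the vehicle arrays and 2036 to 3281 in the FA arrays. All 5 fell in the mean of both genotypes. Cd74, H2-Ab1, H2-Aa and Mfge8 were brighter than Cd207 and dominate this sum. From vehicle to FA the mean log2 signal of Cd207 went from 9.05 to 7.99 in the wild type and from 9.18 to 7.65 in REDD1 KO mice. That of Cd74 went from 11.36 to 9.17 and from 11.43 to 8.56. The sum of 4 T cell markers was 509 to 1007 in the vehicle arrays and 164 to 320 in the FA arrays. The sum of 10 hair follicle markers was 14786 and 16236 in wild-type FA, against 19523 to 24598 in the vehicle arrays and 17892 and 22079 in REDD1 KO FA. Krt15 and Krt17, the brightest of the 10, dominate this sum. From wild-type vehicle to wild-type FA the mean log2 signal went from 13.57 to 12.90 for Krt17, from 12.98 to 12.83 for Krt15 and from 7.91 to 8.44 for Nfatc1. Of the 6 tested, 1 was called higher and 2 lower in the mean of both genotypes. The sum of 7 sebaceous gland markers, dominated by Scd1, was 2296 and 4580 in REDD1 KO FA, against 7268 to 12969 elsewhere. Of the 6 tested, 5 were called lower than in wild-type FA. Some of them rose with FA in the wild type, where 1 was called higher and 0 lower. From wild-type vehicle to wild-type FA the mean log2 signal went from 6.62 to 9.14 for Elovl3, 6.55 to 7.93 for Plin2 and 5.63 to 6.41 for Awat2. It went from 13.26 to 12.89 for Scd1 and from 10.2 to 9.73 for Mgst1. The sum of 8 skeletal muscle markers reached 23202 in KO FA 1 and lay between 251 and 2566 in the other arrays, and that array also had the highest sum of 4 adipocyte markers, 208 against 76 to 96. KO FA 2 carried some keratins of the hair shaft and root sheath. Krt27 was 7.63 there against 4.45 to 4.79 in the other arrays on the log2 scale, and Krt71 was 6.54 against 4.20 to 4.28. Krt31, Krt33a, Krt34 and Krt86 were also highest there, at 5.33, 6.65, 6.33 and 6.19. Krt25, Krt35, Foxn1 and Msx2 were not above background in that array, and Hoxc13 and Dlx3 were not raised (4.49 and 9.15). The sum of all 12 hair matrix and shaft markers, of which Dlx3 was the brightest, was 1255 against 745 to 1002. Both REDD1 KO FA arrays thus stood apart. The member calls within REDD1 KO mice and between the genotypes under FA are also given without KO FA 1 and without KO FA 2. For member calls in the mean of both genotypes, the arrays whose omission ended the call are named. The part of these shifts in the results below was not tested.

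Of the 47 Wnt genes on the array, 22 were detected on all 8 arrays (detection p under 0.05, the share of negative control probes at least as bright), 15 on some and 10 on none. The ligands Wnt3, Wnt3a, Wnt4, Wnt6, Wnt7b and Wnt10a were detected throughout, as were the receptors Fzd1, Fzd6, Fzd7 and Fzd10 and the co-receptor Lrp5. So were Dkk3, Dkkl1 and Sfrp1, listed as inhibitors, and both secretion factors, Porcn and Wls. The cytoplasmic components Dvl1, Axin2, Apc and Gsk3b and the nuclear factors Tcf7l2 and Tle1 were also detected throughout. No array showed a signal above background for the ligands Wnt5b, Wnt10b and Wnt11, the receptor Fzd8, the adaptors Dvl2 and Dvl3, the inhibitors Dkk2, Sfrp2 and Sfrp4, or the transcription factor Lef1. For these genes no level can be given at this sensitivity. Fzd3, Dkk1, Frzb and Nkd1 were detected on 1 array each and were not tested. In all, 14 of the 47 genes were left untested, 6 of them inhibitors.

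**Figure D1:**
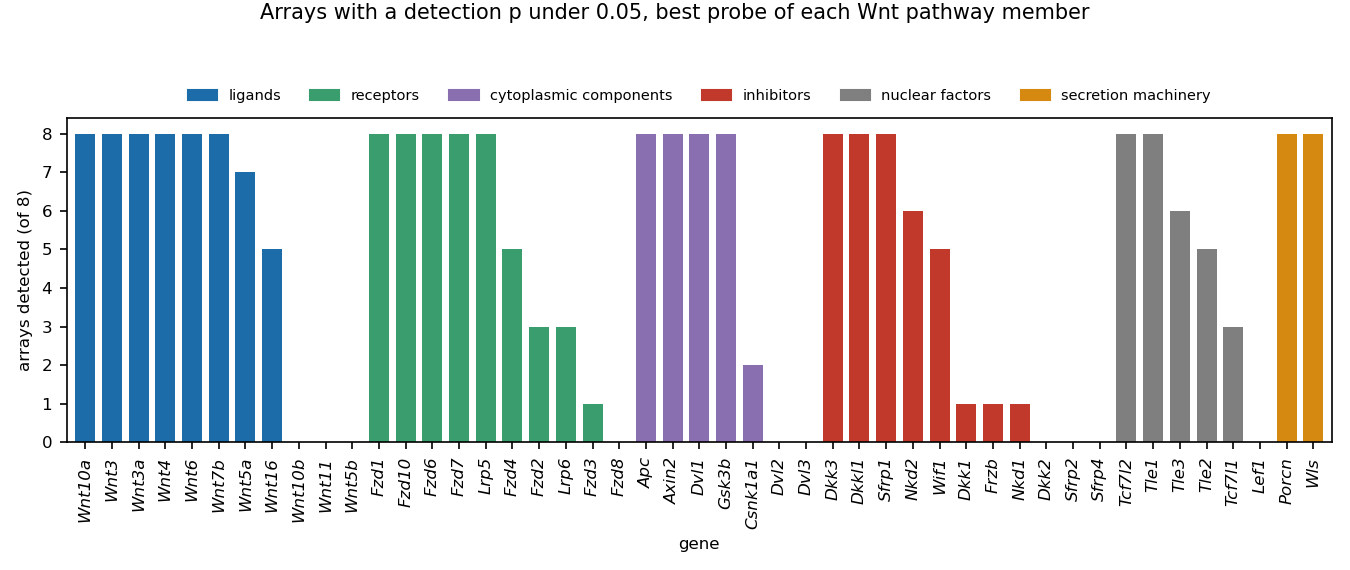
Number of arrays (of 8) on which the best probe of each of the 47 Wnt pathway genes had a detection p under 0.05, with genes on the x axis and bars colored by role. Of the 47 genes, 22 reach 8 arrays and 10 stand at 0, and the inhibitors hold the largest number of genes detected on 1 array or none, 6 of 11.

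The effect of FA was first asked as the mean of both genotypes, which uses all 8 arrays. FA lowered the inhibitors Nkd2, Sfrp1 and Dkk3, the receptors Fzd7 and Fzd10, the ligands Wnt3, Wnt3a and Wnt5a and the ligand carrier Wls, and raised Porcn, the enzyme that lipidates Wnt proteins, and the ligand Wnt6. Of the 45 tested probes, 10 (9 genes) were called lower and 3 (2 genes) higher at an adjusted p under 0.05 in limma's moderated linear model; over the whole array 6.98% of the tested probes were called lower and 6.11% higher. The median log2 difference of the 45 probes was 0.01, against -0.004 over all tested probes, and 23 of them lay above 0. Called genes were thus spread over ligands, receptors, inhibitors and secretion factors, while 0 of 5 cytoplasmic probes and 0 of 7 nuclear factor probes were called (2 and 1 at an unadjusted p under 0.05); with so few probes a count of 0 is near the whole-array share. Without background correction, which leaves more of the background in dim signals, 22 of the 28 called member differences of all comparisons were over 1.5 times smaller (ratios of 1.17 to 3.81) and 8 were no longer called; the values are given with each gene.

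Within the genotypes, 7 of the 45 probes were called lower and 1 higher in the wild type, where the whole array had 3.17% lower and 3.18% higher. In REDD1 KO mice 3 probes were called lower and 1 higher, against 2.34% lower and 2.17% higher over the array. Both sets of calls point the same way for Nkd2, Sfrp1, Fzd10 and Porcn, the genes called in each genotype. Whether FA acted differently in the 2 genotypes was tested as an interaction, and 0 of the 45 probes were called (limma; 2 at an unadjusted p under 0.05, Fzd2 and Dkkl1), against 0.0305% of all tested probes. With arrays centred on their medians in place of quantile normalization, the median of all tested probes shifted to -0.10 in the mean of both genotypes and to -0.13 in REDD1 KO mice, and 27% in place of 46.7% of all calls in the mean were higher (29.5% in place of 48.1% in REDD1 KO mice); the member calls were then 2 higher and 10 lower in the mean, and 1 higher and 5 lower in REDD1 KO mice.

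**Figure D2:**
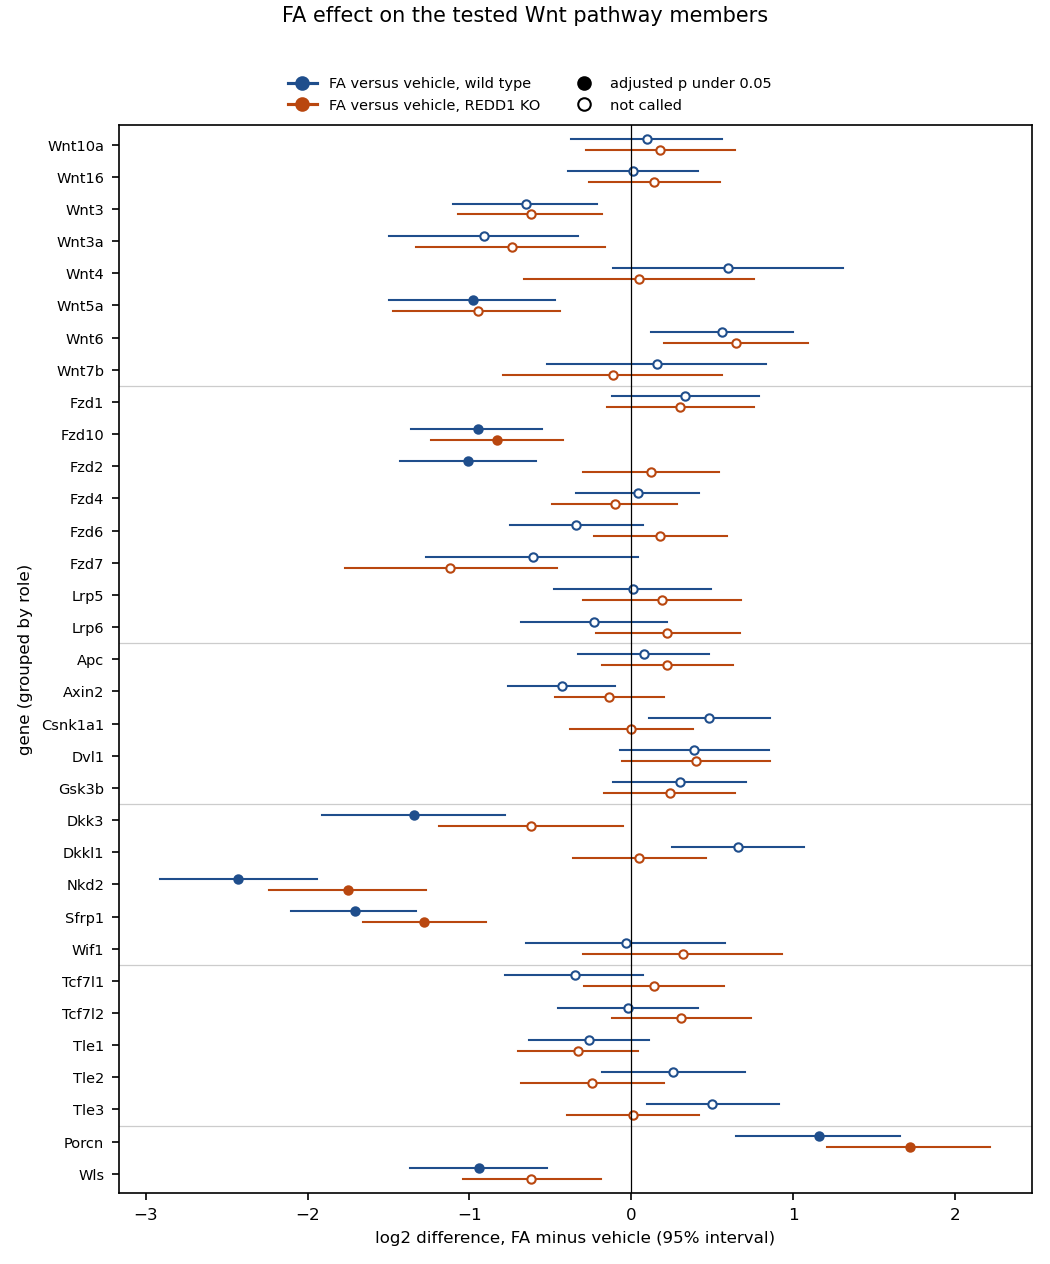
Log2 difference between FA and vehicle (x axis, with 95% interval) for the 33 tested Wnt pathway genes, 1 probe per gene, grouped from top to bottom as ligands, receptors, cytoplasmic components, inhibitors, nuclear factors and secretion machinery. Filled points passed an adjusted p of 0.05. The inhibitors Nkd2 and Sfrp1 lie farthest to the left in the wild type (-2.43 and -1.71) and Porcn farthest to the right in REDD1 KO mice (1.72). Points of Nkd2, Fzd2, Csnk1a1, Lrp6, Tcf7l1, Tle2 and Wnt16 include groups below background and are fitted values only.

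The secretion machinery comes first in the life of a Wnt protein, and its 2 genes moved in opposite directions. Porcn adds the lipid that Wnt proteins need for secretion and receptor binding. Its main probe had log2 signals of 5.83 and 6.44 in wild-type vehicle, 7.16 and 7.41 in wild-type FA, 6.06 and 6.39 in REDD1 KO vehicle, and 7.94 and 7.95 in REDD1 KO FA. All 4 FA arrays lay above all 4 vehicle arrays, by 1.16 ± 0.223 (log2 difference ± SE, 2.23-fold, adjusted p = 0.0193) in the wild type and 1.72 ± 0.223 (3.29-fold, adjusted p = 0.00413) in REDD1 KO mice. The second Porcn probe, below background in both wild-type vehicle arrays, rose by 0.61 in the mean of both genotypes (adjusted p = 0.018) and was called in neither genotype alone. Wls, the carrier that brings lipidated Wnt proteins to the cell surface, had 9.11 and 8.83 in wild-type vehicle, 8.10 and 7.94 in wild-type FA, 8.72 and 8.86 in REDD1 KO vehicle, and 7.98 and 8.37 in REDD1 KO FA. It fell by 0.94 in the wild type (± 0.187, 1.92-fold, adjusted p = 0.0215), and the difference in REDD1 KO mice was -0.62 (adjusted p = 0.107); in the mean it fell by 0.78 (1.72-fold, adjusted p = 0.00592). In whole epidermis, fewer cells of a type and less RNA per cell cannot be told apart. The mean effects of the main Porcn probe and of Wls and the Porcn effect in REDD1 KO mice stayed called when any single array was left out, whereas the wild-type calls of both genes were lost without WT FA 1, WT FA 2 or WT vehicle 1 (adjusted p up to 0.132 for Porcn and 0.138 for Wls). Without background correction the main Porcn probe rose by 0.60 in the wild type and 1.01 in REDD1 KO mice, and its wild-type call was lost with median centring (adjusted p = 0.0694) and with no filter on dim probes (0.0585). Without KO FA 1 or KO FA 2 the differences in REDD1 KO mice were 1.72 and 1.71 for Porcn (adjusted p = 0.0219 and 0.0157), and that of Wls was -0.42 without KO FA 1 (adjusted p = 0.33). The mean call of the second Porcn probe was lost without WT vehicle 2, WT FA 1, WT FA 2 or KO vehicle 2 (adjusted p up to 0.0741) and without background correction (0.16, adjusted p = 0.0722).

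Among the 8 tested ligands, 3 fell with FA in the mean of both genotypes, 1 rose and 4 were not called. By probe, 3 of 12 were called lower and 1 higher, where 6.98% of all tested probes were called lower and 6.11% higher. Wnt3a, a canonical ligand, had log2 signals of 7.97 and 8.83 in wild-type vehicle, 7.54 and 7.44 in wild-type FA, 8.15 and 8.32 in REDD1 KO vehicle, and 7.36 and 7.62 in REDD1 KO FA. Every FA array lay below every vehicle array, and the mean difference was -0.83 ± 0.182 (1.78-fold lower, adjusted p = 0.0184); neither genotype alone was called. Wnt3, a close relative of Wnt3a that also acts through β-catenin, had 6.64 and 7.07, 6.21 and 6.20, 6.23 and 5.88, and 5.53 and 5.34 in the same order of groups. It fell by 0.64 in the mean (± 0.139, 1.55-fold, adjusted p = 0.0181), with -0.65 in the wild type and -0.62 in REDD1 KO mice. Wnt5a, a ligand best known for signals that bypass β-catenin, had 6.11 and 6.68 in wild-type vehicle, 5.40 and 5.42 in wild-type FA, 5.43 and 5.72 in REDD1 KO vehicle, and 4.83 and 4.42 in REDD1 KO FA, the last of these not above background. Its fall was 0.98 in the wild type (± 0.228, 1.98-fold, adjusted p = 0.0378) and 0.97 in the mean (adjusted p = 0.00555), and the difference in REDD1 KO mice was -0.95 (adjusted p = 0.0511). A second Wnt5a probe, detected on 2 arrays, gave -0.13 in the wild type, was not called, and was not above background on any REDD1 KO array.

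Wnt6, a ligand made by epithelia, was the one ligand with a call upward. Its log2 signals were 5.88 and 5.77 in wild-type vehicle, 6.54 and 6.23 in wild-type FA, 5.49 and 5.62 in REDD1 KO vehicle, and 6.43 and 5.97 in REDD1 KO FA. All 4 FA arrays exceeded all 4 vehicle arrays, with a mean difference of 0.60 ± 0.138 (1.52-fold, adjusted p = 0.0219). Wnt7b and Wnt10a did not pass. Wnt7b, a canonical ligand of the epidermis, had 10.35 and 10.39, 10.84 and 10.22, 10.67 and 9.92, and 10.45 and 9.91 at its main probe in the same order, so that the groups overlapped (mean difference 0.02, 95% interval -0.45 to 0.50). Wnt10a, which has a known role in the skin appendages, had 9.06 and 9.21, 9.15 and 9.31, 8.68 and 8.63, and 9.13 and 8.54 (mean difference 0.14, interval -0.19 to 0.46). The remaining tested ligands, Wnt4 and Wnt16, had no call at any of their 4 tested probes. Of the ligand calls, the Wnt5a mean effect stayed called when any single array was left out. Its wild-type call was lost without WT vehicle 2, WT FA 1, WT FA 2, KO vehicle 1 or KO vehicle 2 (adjusted p up to 0.19). The mean call was lost for Wnt3 without WT FA 1, WT FA 2 or KO vehicle 1 (up to 0.0658), for Wnt3a without WT FA 1, WT FA 2 or KO vehicle 2 (up to 0.0665), and for Wnt6 without WT vehicle 2, WT FA 1, KO vehicle 1, KO vehicle 2 or KO FA 1 (up to 0.0923) and with median centring (adjusted p = 0.0872). The wild-type call of Wnt5a was also lost without background correction (-0.39, adjusted p = 0.0675), with median centring (0.0594) and with no filter (0.0964), and the mean call of Wnt3a with no filter (0.0665). Without background correction the mean differences were -0.33 for Wnt5a, -0.28 for Wnt3 and 0.24 for Wnt6, all still called (adjusted p = 0.0279, 0.0398 and 0.0451). Without KO FA 1 the differences in REDD1 KO mice were -0.71 for Wnt3, -0.61 for Wnt3a and -1.16 for Wnt5a, none of them called (adjusted p = 0.171, 0.354 and 0.0599).

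**Figure D3:**
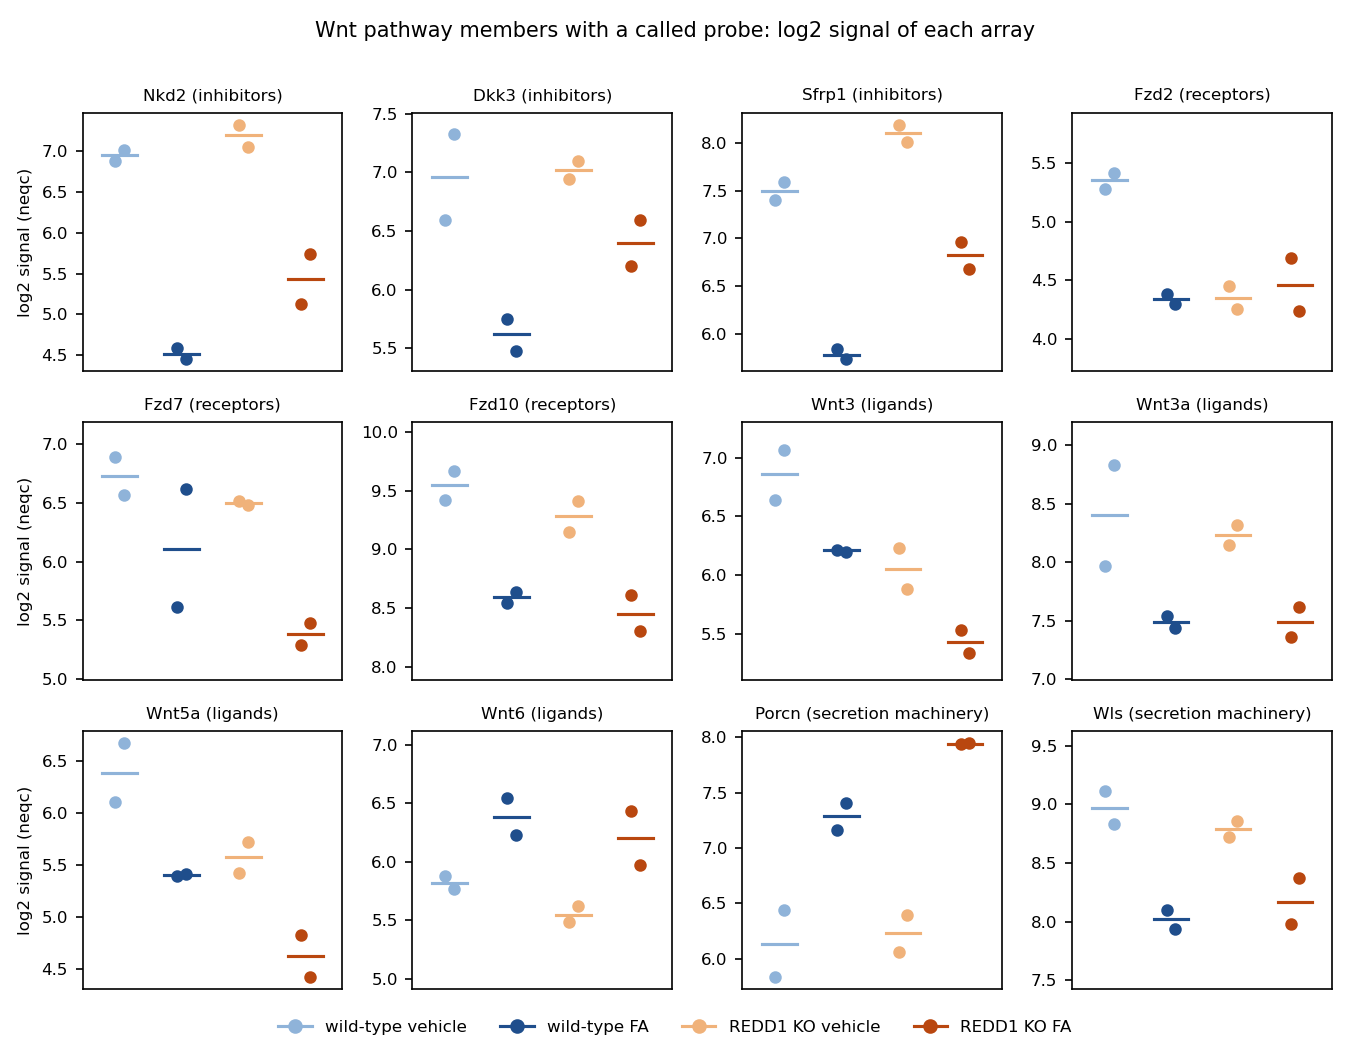
Log2 signal (y axis, after background correction and quantile normalization) of each array for the 12 Wnt pathway genes with a call in any comparison, at the called probe of highest signal. Points are single arrays, lines are means of the 2 arrays of a group, and y axes differ between panels. Nkd2 goes from 6.88 to 7.32 in the vehicle arrays to 4.45 to 5.74 in the FA arrays, and Porcn from 5.83 to 6.44 to between 7.16 and 7.95.

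The Frizzled receptors Fzd7 and Fzd10 fell with FA and Fzd2 fell in the wild type. Fzd10, which is bound by canonical ligands, had log2 signals of 9.42 and 9.67 in wild-type vehicle, 8.54 and 8.64 in wild-type FA, 9.15 and 9.41 in REDD1 KO vehicle, and 8.61 and 8.30 in REDD1 KO FA. The fall was called in both genotypes, -0.95 ± 0.181 in the wild type (1.94-fold, adjusted p = 0.0183) and -0.83 ± 0.181 in REDD1 KO mice (1.78-fold, adjusted p = 0.0369), and their difference was 0.13 with an interval of -0.45 to 0.70. The other Fzd10 probes gave -0.30 and -0.26 in the mean and were not called, the latter at a probe not above background in either FA group. Fzd7, a receptor known from intestinal stem cells, had 6.89 and 6.57, 5.61 and 6.62, 6.52 and 6.48, and 5.29 and 5.48 in the same order of groups. Wild-type FA replicate 2 lay within the range of the vehicle arrays, the other 3 FA arrays below it, and the mean difference was -0.87 ± 0.205 (1.82-fold, adjusted p = 0.0247). Fzd2 was a dim gene, with 5.28 and 5.41 in wild-type vehicle, 4.38 and 4.30 in wild-type FA, 4.45 and 4.25 in REDD1 KO vehicle, and 4.69 and 4.24 in REDD1 KO FA. It was above background in both wild-type vehicle arrays and in 1 REDD1 KO FA array, and not in the other 5.

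Since wild-type FA lay below background for Fzd2, its fall there is a lower bound, at least 1.61-fold (adjusted p = 0.0161); such bounds set the mean of the brighter group against the dimmest signal that counted as detected. Its genotype difference of the FA effect did not pass (adjusted p = 0.33), and no size is given for it, since wild-type FA and REDD1 KO vehicle were both not above background. Fzd6, a receptor known for its part in hair orientation, gave -0.34 in the wild type and 0.18 in REDD1 KO mice with no call. Fzd1, Fzd4, Lrp5 and Lrp6 were not called, with mean differences within 0.32 of 0. Lrp6 was not above background in wild-type FA and REDD1 KO vehicle, so its difference is a fitted value only. The mean call of Fzd10 held when any single array was left out, but its call in REDD1 KO mice was lost without WT FA 1, WT FA 2, KO vehicle 1, KO vehicle 2, KO FA 1 or KO FA 2 (adjusted p up to 0.221; -0.98 and 0.0527 without KO FA 1, -0.67 and 0.163 without KO FA 2) as well as with no filter (0.0678), with only the compared arrays (0.09) and with the replicate number as a block (0.0504), and its wild-type call without WT vehicle 2, WT FA 1 or WT FA 2 (up to 0.127). The same 3 arrays each removed the Fzd2 call (adjusted p up to 0.109), as did omitting the background correction (-0.27, adjusted p = 0.0745), and the Fzd7 call was lost without WT vehicle 1, KO vehicle 1, KO vehicle 2 or KO FA 1 (up to 0.0742), without background correction (-0.36, adjusted p = 0.0578) and with no filter (0.0891).

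The cytoplasmic components and nuclear factors carry the signal inside the cell, and none of their 12 probes was called with FA in the mean or in either genotype (limma). Axin2, a scaffold of the β-catenin destruction complex and itself a widely used target gene of the pathway, had log2 signals of 8.76 and 8.69 in wild-type vehicle, 8.30 and 8.29 in wild-type FA, 8.59 and 8.61 in REDD1 KO vehicle, and 8.38 and 8.54 in REDD1 KO FA. FA arrays lay below vehicle arrays within each genotype, by -0.43 ± 0.147 in the wild type (adjusted p = 0.12) and -0.14 ± 0.147 in REDD1 KO mice (adjusted p = 0.661). The mean difference was -0.28, with a 95% interval of -0.52 to -0.05 and an adjusted p of 0.109, so the difference did not pass over the array. It did pass without background correction (-0.23, adjusted p = 0.0231), with a background offset of 50 (-0.26, 0.0376) and with no filter (0.0418), and the wild-type difference passed in the first 2 of these (-0.34 and -0.40, adjusted p = 0.0292 and 0.0441). Dvl1, an adaptor that receives the signal from Frizzled, had 7.96 and 7.97, 8.63 and 8.09, 7.99 and 7.71, and 8.31 and 8.18 in the same order, and its mean difference of 0.40 (interval 0.07 to 0.72, adjusted p = 0.109) did not pass either. Csnk1a1, a kinase of the destruction complex, was above background only in the 2 wild-type FA arrays. Tle1, a corepressor that binds Tcf factors, had a mean difference of -0.29 (adjusted p = 0.132) at its main probe. Tcf7l2, a transcription factor of the pathway, had 6.86 and 6.90, 6.87 and 6.85, 6.99 and 7.47, and 7.42 and 7.67 (mean difference 0.15, interval -0.16 to 0.45). Apc and Gsk3b, the other 2 tested members of the destruction complex, were not called.

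The inhibitors Nkd2 and Sfrp1 had the largest mean differences with FA among the 33 genes. Nkd2 (naked cuticle 2) binds Dishevelled proteins and dampens the signal inside the cell. Its log2 signals were 6.88 and 7.01 in wild-type vehicle, 4.59 and 4.45 in wild-type FA, 7.32 and 7.05 in REDD1 KO vehicle, and 5.13 and 5.74 in REDD1 KO FA. All 4 FA arrays were more than 1 log2 unit below every vehicle array, and both wild-type FA arrays were not above background. The fall was therefore at least 4.88-fold in the wild type (fitted difference -2.43 ± 0.214, adjusted p = 0.00138) and 3.37-fold in REDD1 KO mice (-1.75 ± 0.214, adjusted p = 0.00346). Sfrp1, a secreted Frizzled-like protein that captures Wnt ligands, had 7.40 and 7.59 in wild-type vehicle, 5.84 and 5.73 in wild-type FA, 8.19 and 8.01 in REDD1 KO vehicle, and 6.96 and 6.68 in REDD1 KO FA. It fell 3.28-fold in the wild type (-1.71 ± 0.17, adjusted p = 0.00194) and 2.43-fold in REDD1 KO mice (-1.28 ± 0.17, adjusted p = 0.00461). Neither gene lost an FA call when any single array was left out, and the REDD1 KO differences were -1.45 for Nkd2 and -1.42 for Sfrp1 without KO FA 1 (adjusted p = 0.0125 and 0.0123), and -2.06 and -1.14 without KO FA 2 (adjusted p = 0.00192 and 0.0198). The fitted FA effects of the genotypes differed by 0.67 for Nkd2 (interval -0.01 to 1.36), with wild-type FA not above background, and by 0.43 for Sfrp1 (interval -0.11 to 0.98), and neither difference was called (adjusted p = 0.51 and 0.579). Without background correction the mean falls were smaller, -0.85 on the log2 scale in place of -2.09 for Nkd2 and -0.85 in place of -1.50 for Sfrp1, and both were still called (adjusted p = 0.00102 and 0.000924).

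Dkk3, a member of the Dickkopf family whose effect on Wnt signaling varies with the cell, was read by 2 detected probes. The main probe had 6.59 and 7.33 in wild-type vehicle, 5.75 and 5.48 in wild-type FA, 6.94 and 7.10 in REDD1 KO vehicle, and 6.20 and 6.59 in REDD1 KO FA; the other had 6.26 and 7.20, 5.22 and 5.67, 6.77 and 6.75, and 5.59 and 6.36. At both probes FA arrays lay below vehicle arrays within each genotype, with mean differences of -0.98 ± 0.178 (1.98-fold, adjusted p = 0.00801) and -1.03 ± 0.237 (2.05-fold, adjusted p = 0.0216), and the main probe was also called in the wild type (-1.34, adjusted p = 0.0171). Dkkl1, a Dickkopf-like protein, is listed here with the inhibitors, and its effect on Wnt signaling was not tested. At the main probe of 3 it had 9.56 and 9.77 in wild-type vehicle and 10.43 and 10.22 in wild-type FA. The signals were 9.74 and 9.45 in REDD1 KO vehicle, and 9.77 and 9.51 in REDD1 KO FA. The FA difference was 0.66 ± 0.182 in the wild type (adjusted p = 0.0665) and 0.05 ± 0.182 in REDD1 KO mice (adjusted p = 0.912), and their difference of -0.61 was not called (adjusted p = 0.492). The wild-type difference passed without background correction (0.60, adjusted p = 0.0464), with offset 50 (0.0421) and with trended and robust eBayes (0.0263). The other Dkkl1 probes gave 0.33 and 0.17 in the wild type and were not called either. Wif1, another secreted trap for Wnt ligands, was detected on 5 arrays and showed no call. The mean call of the main Dkk3 probe held when any single array was left out; its wild-type call was lost without WT vehicle 2, WT FA 1 or WT FA 2 (adjusted p up to 0.124), and the mean call of the other probe without WT FA 1, KO vehicle 1, KO vehicle 2 or KO FA 1 (up to 0.0912). Without background correction the mean differences were -0.47 (adjusted p = 0.0268) and -0.45 (adjusted p = 0.0557, no longer called), and the wild-type call was lost (-0.62, adjusted p = 0.0503); with no filter the wild-type call and the mean call of the other probe were lost (0.0624 and 0.0882). In REDD1 KO mice the 2 probes gave -0.43 and -0.40 without KO FA 1 (adjusted p = 0.492 and 0.604).

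The promoter windows of the members (RefSeq, build GRCm38.p6, 300 bases around the start of transcription) were read for the short motifs through which both pathways bind DNA. A window was held for 32 of the 47 genes, 39 windows in all. CTTTGAT, the core bound by Tcf and Lef factors, was present on either strand in 2 of the 39 windows (5.13%), against 3.73% of 32851 windows of all genes. AGAACA, which makes up one side of the palindromic glucocorticoid response element, was present in 7 (17.9%), against 19.0% of all windows. Among the 11 genes called in the mean FA effect, 7 had a window (Wnt3, Wnt3a, Wnt6, Fzd7, Fzd10, Nkd2 and Wls) and 0 of these windows held either motif. The windows of Nkd2 (most changed by FA), of Wls and of Axin2 are printed 5′ to 3′ on the gene's strand, with AGAACA on either strand in capitals where it is present, first at position 99 of the Axin2 window. They lie at chr13:73847582-73847881 (minus strand) for Nkd2, chr3:159839400-159839699 (plus strand) for Wls and chr11:108920099-108920398 (plus strand) for Axin2. These matches describe letters in the windows and not binding.
Nkd2: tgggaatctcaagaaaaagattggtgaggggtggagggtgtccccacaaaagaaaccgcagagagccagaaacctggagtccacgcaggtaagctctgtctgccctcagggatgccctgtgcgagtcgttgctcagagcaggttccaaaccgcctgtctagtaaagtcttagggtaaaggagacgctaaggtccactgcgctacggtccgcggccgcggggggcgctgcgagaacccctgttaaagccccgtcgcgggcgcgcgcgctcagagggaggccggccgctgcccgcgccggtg
Wls: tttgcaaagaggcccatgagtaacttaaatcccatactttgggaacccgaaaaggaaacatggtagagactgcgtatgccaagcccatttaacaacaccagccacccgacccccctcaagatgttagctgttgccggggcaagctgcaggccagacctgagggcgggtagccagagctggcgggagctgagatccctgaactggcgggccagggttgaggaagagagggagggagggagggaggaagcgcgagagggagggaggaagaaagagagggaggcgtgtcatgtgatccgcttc
Axin2: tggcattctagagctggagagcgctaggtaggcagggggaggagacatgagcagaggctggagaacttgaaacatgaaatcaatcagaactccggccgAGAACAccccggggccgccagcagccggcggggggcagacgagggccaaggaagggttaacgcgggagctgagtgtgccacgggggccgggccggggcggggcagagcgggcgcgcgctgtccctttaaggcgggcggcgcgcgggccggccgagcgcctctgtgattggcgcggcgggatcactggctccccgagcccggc

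A further 73 genes of the Wnt pathway, of which 66 had a probe and 36 genes (55 probes) were tested, had 4 probes called higher and 5 lower in the mean FA effect, close to the whole-array shares of 6.11% and 6.98%. The largest fall was that of Rspo3, an R-spondin that amplifies Wnt signals at the receptor, with 7.30 and 6.78 in wild-type vehicle, 5.53 and 5.15 in wild-type FA, 7.11 and 7.21 in REDD1 KO vehicle, and 5.57 and 5.18 in REDD1 KO FA. Every FA array lay below every vehicle array, 3.26-fold lower in the wild type (adjusted p = 0.00487) and 3.44-fold lower in REDD1 KO mice (adjusted p = 0.00405), and the genotype difference was -0.08 (interval -0.80 to 0.64). Sostdc1, a secreted antagonist of Wnt and BMP signals, and Lrp4, a receptor that binds it, fell by 1.70 and 0.80 on the log2 scale in the mean (adjusted p = 0.00616 and 0.00538). Gpc3 and Sdc1, proteoglycans of the cell surface, fell by 0.69 and 0.58 (adjusted p = 0.0237 and 0.0225), each at 1 probe, while the other tested probes of both were not called. Marker sums of cell types known for R-spondin and Wnt inhibitor transcripts are given beside these falls and that of Sfrp1, and their part was not tested. The sum of 11 dermal fibroblast markers was 1096 and 1026 in wild-type vehicle and 963 and 1241 in wild-type FA. It was 1798 and 1313 in REDD1 KO vehicle and 1423 and 1234 in REDD1 KO FA. Dcn and Fbln1, the brightest of the 11, dominate this sum. From vehicle to FA the mean log2 signal of Dcn went from 8.42 to 8.91 in the wild type and from 9.09 to 8.73 in REDD1 KO mice. That of Vim went from 6.97 to 6.51 and from 6.70 to 5.29. Of the 9 tested, 0 were called higher and 1 lower in the mean of both genotypes. The sum of 6 dermal papilla markers, 4 of them undetected on all arrays, was 120 to 150. The largest rise was that of Tle6, a member of the Groucho corepressor family, with 6.0 and 6.57, 8.61 and 8.51, 6.44 and 7.13, and 8.92 and 7.98 in the same order of groups (2.27 ± 0.336 in the wild type, 4.84-fold, adjusted p = 0.00691; 1.66 ± 0.336 in REDD1 KO mice, 3.17-fold, adjusted p = 0.0276). The casein kinases Csnk1e (1 of 2 tested probes) and Csnk1d (1 of 5) and the Gsk3 inhibitor Frat2 rose by 0.69, 0.63 and 0.53 (adjusted p = 0.00536, 0.00987 and 0.0259), and the calls of Csnk1d and Frat2 were lost with median centring (0.0716 and 0.147). Single arrays ended some calls within a genotype: Rspo3 in the wild type without WT FA 2 (adjusted p = 0.0519), Tle6 in the wild type without WT FA 1 or WT FA 2 (up to 0.0615), and Tle6 in REDD1 KO mice without WT FA 1, WT FA 2, KO vehicle 1, KO vehicle 2 or KO FA 1 (up to 0.153). Without KO FA 1 the differences in REDD1 KO mice were -1.98 for Rspo3 and 1.20 for Tle6 (adjusted p = 0.0102 and 0.104), and without KO FA 2 they were -1.59 and 2.13 (adjusted p = 0.0157 and 0.0109). The Tle6 call in REDD1 KO mice was also lost without background correction and with median centring (0.0574 in both), with no filter (0.113) and with only the compared arrays (0.0808), and the Gpc3 call with no filter (0.0689). The gene of β-catenin itself, Ctnnb1, was not called, with mean differences of 0.09 and -0.12 at its 2 probes.

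Of 26 listed target genes of β-catenin, 25 had a probe and 13 (23 probes) were tested; 6 probes (4 genes) were called lower and 1 higher in the mean FA effect, where 6.98% of the whole array was called lower and 6.11% higher. Ccnd1, the cell cycle regulator cyclin D1, accounted for 3 of the 6, with mean differences of -1.65, -1.63 and -1.68 (adjusted p = 0.00147, 0.00222 and 0.00188) and -1.54 to -1.71 within the genotypes. The genotype calls of Ccnd1 were lost in the wild type when any one wild-type array was left out (vehicle replicate 1 for 2 of the 3 probes, adjusted p up to 0.154) and in REDD1 KO mice without KO vehicle 1 or KO FA 2 (up to 0.118). In REDD1 KO mice the 3 probes gave -2.06 to -2.19 without KO FA 1 (adjusted p up to 0.0137) and -1.24 to -1.31 without KO FA 2 (up to 0.0722). With no filter all genotype calls of Ccnd1 were lost (up to 0.093), and with only the compared arrays those in REDD1 KO mice (up to 0.079); without background correction 1 of those 3 was lost (0.0511). The mean call of Tnfrsf19 was lost with no filter (0.0873). Tnfrsf19, a stem cell receptor known as Troy, Lbh, a transcription cofactor of epithelia, and Sox9, a hair follicle stem cell factor that is also in the hair follicle marker list, fell by 0.82, 0.71 and 0.49 (adjusted p = 0.025, 0.0103 and 0.0299); Tnfrsf19 and Lbh each had a second tested probe that was not called. Ascl2, a transcription factor of stem cells, rose by 0.76 (adjusted p = 0.015). The median of the 23 probes was -0.18, against -0.004 over all tested probes. The calls of Rspo3, Sostdc1, Lrp4, Tle6, Csnk1e, Csnk1d and Ccnd1 in the mean held when any single array was left out. The mean calls of the other genes were lost when single arrays were left out: Lbh without WT FA 1 (adjusted p = 0.0506), Ascl2 without WT FA 1, WT FA 2 or KO vehicle 2 (up to 0.0599), Tnfrsf19 without WT FA 1, WT FA 2, KO vehicle 1, KO vehicle 2 or KO FA 2 (up to 0.0826), Sdc1 without WT vehicle 2, WT FA 1, WT FA 2, KO vehicle 1 or KO FA 1 (up to 0.0884), Frat2 without WT vehicle 1, WT vehicle 2, WT FA 2, KO vehicle 1 or KO FA 2 (up to 0.0954), Gpc3 without any one array other than WT vehicle 2 and KO FA 1 (up to 0.0986), and Sox9 without any one array other than WT FA 2 and KO FA 1 (up to 0.121).

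**Figure D4:**
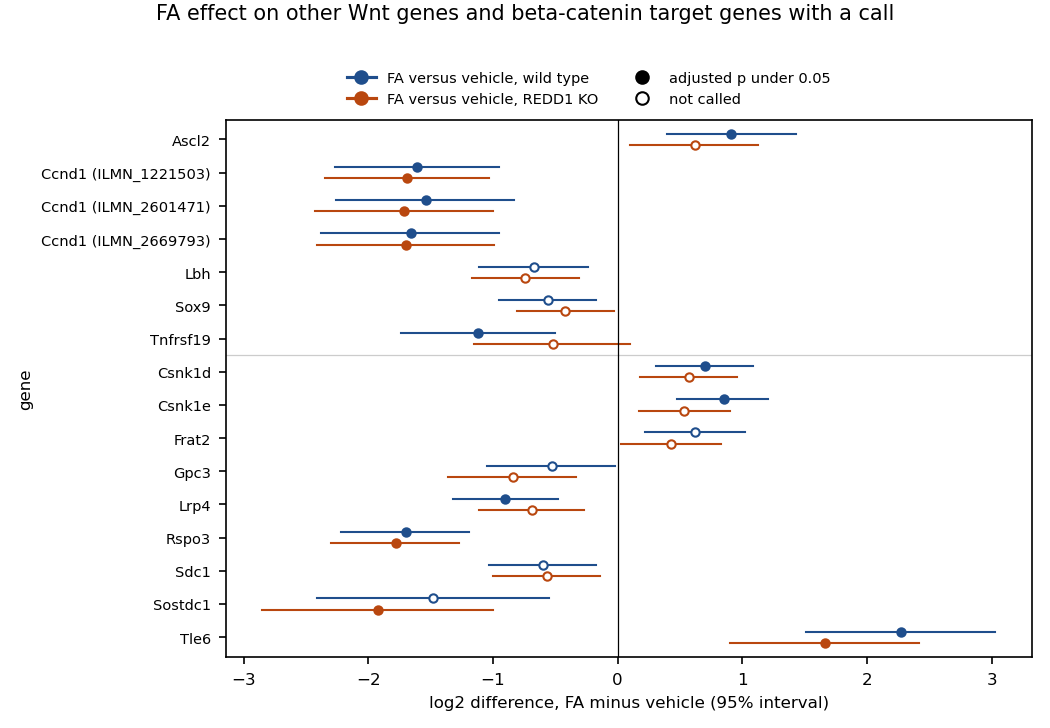
Log2 difference between FA and vehicle (x axis, with 95% interval) in the wild type and in REDD1 KO mice for the other Wnt pathway genes (lower block) and β-catenin target genes (upper block) with a call in an FA comparison; filled points passed an adjusted p of 0.05. Rspo3 stands near -1.70 and -1.78 and the 3 Ccnd1 probes between -1.54 and -1.71 in both genotypes, and Tle6 reaches 2.27 in the wild type.

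REDD1 KO and wild-type mice were compared at baseline in the vehicle groups, which also differ in the source of the animals. No member passed (limma, 0 of 45 probes; 5 at an unadjusted p under 0.05), where 0.168% of all tested probes were called higher and 0.343% lower. The 5 probes were those of Wnt3 (-0.80, interval -1.25 to -0.36), Wnt5a (-0.81, -1.33 to -0.30), Wnt10a (-0.48, -0.94 to -0.02), Sfrp1 (0.60, 0.22 to 0.98) and Fzd2, which was not above background in REDD1 KO vehicle and was at least 1.66-fold lower there. REDD1 KO was lower for the 3 ligands and Fzd2 and higher for Sfrp1, and these 5 were picked by that unadjusted p. Fzd2 had an adjusted p of 0.0734 and passed without KO FA 1 or KO FA 2 (adjusted p = 0.042).

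Under FA, the REDD1 KO arrays exceeded the wild-type arrays at the inhibitors Sfrp1 and Nkd2 and lay below them at the ligand Wnt3. These were the 2 probes called higher and the 1 called lower, where 3.14% of all tested probes were higher and 4.02% lower; with median centring 32.3% in place of 43.8% of all calls were higher and 0 member probes were called. Sfrp1 was 6.96 and 6.68 against 5.84 and 5.73, a difference of 1.03 ± 0.17 (2.05-fold, adjusted p = 0.0114; 0.89 and 0.0496 without KO FA 1, 1.18 and 0.0196 without KO FA 2). Nkd2 was 5.13 and 5.74 against 4.59 and 4.45, at least 1.71-fold higher since wild-type FA was not above background (fitted difference 0.91, adjusted p = 0.0383; 1.22 and 0.0228 without KO FA 1, 0.61 and 0.161 without KO FA 2). Wnt3 was 5.53 and 5.34 against 6.21 and 6.20 (-0.77 ± 0.197, adjusted p = 0.0487; -0.87 and 0.0851 without KO FA 1, -0.68 and 0.187 without KO FA 2). With the replicate block only the Sfrp1 call was left (adjusted p = 0.0518 for Nkd2 and 0.0659 for Wnt3). Both genotype comparisons of Wnt3 gave almost the same size, -0.80 under vehicle and -0.77 under FA. These comparisons share their arrays with the FA comparisons and are not independent of them.

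Further members had an unadjusted p under 0.01 here without passing. Wnt7b at its second probe had 7.38 and 6.78 in wild-type FA and 5.92 and 6.01 in REDD1 KO FA (-1.11, adjusted p = 0.0522), whereas its main probe gave -0.35 (adjusted p = 0.515), so the 2 probes differed. Dkkl1 was lower in REDD1 KO FA (-0.68, adjusted p = 0.0548), Wnt5a too (-0.78, adjusted p = 0.0715), and Fzd6 and Tcf7l2 were higher (0.62 and 0.68, adjusted p = 0.0722 and 0.0644). Csnk1a1, not above background in REDD1 KO FA, was at least 1.19-fold lower there (adjusted p = 0.081). Without KO FA 1 the differences were -1.07 for that Wnt7b probe, -0.81 for Dkkl1, -0.99 for Wnt5a, 0.74 for Fzd6 and 0.81 for Tcf7l2, with no call (adjusted p of 0.0709 to 0.133). Dkkl1 passed without background correction, with offset 50, with probes detected on all arrays and with trended and robust eBayes (adjusted p = 0.0226 to 0.0428), and the second Wnt7b probe passed in the last 2 of these and with only the compared arrays (0.0309 to 0.0416). Of the other pathway genes, Btrc, which targets β-catenin for degradation, was called higher at 1 of 2 probes (0.90, adjusted p = 0.0266) and Daam1, which acts in the polarity branch, lower (-0.98, adjusted p = 0.0277), and of the target genes Cd44, an adhesion receptor, was called lower at 1 of 4 probes (-1.03, adjusted p = 0.0317). The Sfrp1 call was lost without WT FA 1 or WT FA 2 (adjusted p = 0.0587 and 0.106) and with median centring (0.0534), the Nkd2 call without WT FA 1, WT FA 2, KO vehicle 1, KO vehicle 2 or KO FA 2 (up to 0.201), and the Wnt3 call without any one array other than the wild-type vehicle ones (up to 0.204). Without WT FA 1 or WT FA 2 the calls of Btrc (up to 0.171), Daam1 (up to 0.163) and Cd44 (up to 0.172) were also lost, and those of Btrc without KO FA 1 or KO FA 2, of Daam1 without KO FA 1 and of Cd44 without KO FA 2. The Nkd2 and Wnt3 calls also ended without background correction (0.25 and -0.29, adjusted p = 0.142 and 0.111), with offset 50 (0.0853 and 0.0693) and with no filter (0.0804 and 0.0851), the Nkd2 call with only the compared arrays (0.065), and the Daam1 and Cd44 calls with no filter (0.0606 and 0.0734). The Sfrp1 difference was 0.47 without background correction and still called (adjusted p = 0.0248).

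**Figure D5:**
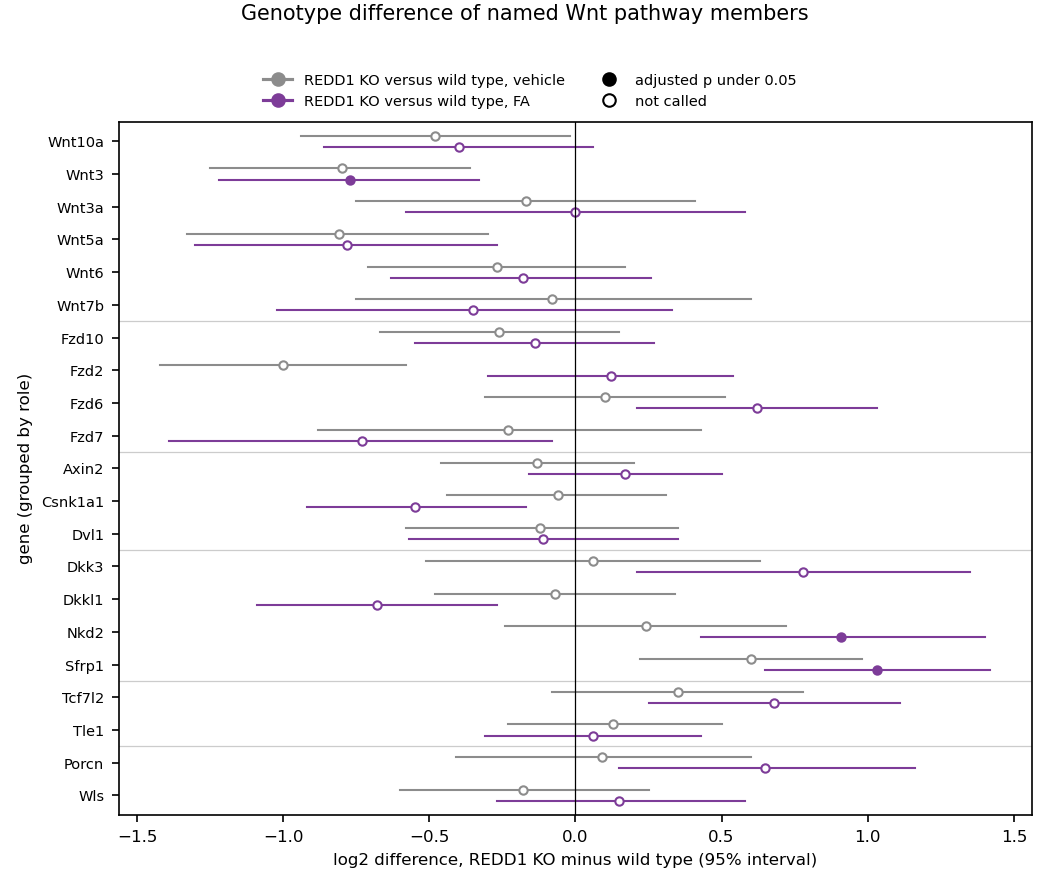
Log2 difference between REDD1 KO and wild type (x axis, with 95% interval) under vehicle and under FA for 21 Wnt pathway genes, 1 probe per gene, ordered from top to bottom by role. Filled points passed an adjusted p of 0.05: they are Wnt3 (-0.77), Nkd2 (0.91) and Sfrp1 (1.03) under FA, and there are none under vehicle. Points of Nkd2, Fzd2 and Csnk1a1 include groups below background and are fitted values only.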

How the data were processed

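Epidermal RNA of 8 mice was measured on Illumina bead arrays, 2 arrays in each of 4 groups. The authors deposited a bead intensity and a detection p-value for each of 25697 probes, together with 798 negative controls. The log2 values analysed here are those the authors deposited after normexp background correction against the negative controls with an offset of 16 and quantile normalization (limma's neqc, version not given in the sources used here); rebuilding them from the deposited intensities gave differences of at most 4.99e-09. Median intensity was 95.9 to 107 per array, and 2 broken lines of text were left out. Probes were named through Entrez gene identifiers (23962 probes), accessions (9) or the platform annotation (7), and 1719 stayed unnamed.

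Probes with a detection p under 0.05 on at least 2 of the 8 arrays were tested (13131). One mean per group was fitted across all 8 arrays with limma 3.58.1 (R 4.3.3, eBayes defaults), 6 contrasts were formed, and the Benjamini-Hochberg adjustment covered every tested probe. A probe is written as called at an adjusted p under 0.05. Intervals are 95% intervals of the fit. With 2 arrays per group, p-values rest on the spread between these animals within groups, pooled over the 4 groups. That spread was moderated toward the one of all tested probes (5.08 prior and 4 residual degrees of freedom). The number of arrays limits the precision. Members were named with all values if called, if a probe had an unadjusted p under 0.01, or if among the 2 of highest mean signal in their role; other pathway and target genes were named if called, and Ctnnb1 as the gene of β-catenin. The members, lists and tests were chosen with earlier results of these data known. Scripts were tested on simulated data. Alternatives were the rebuilt values, omission of the background correction, offset 50, centring on array medians, no filter, probes detected on all arrays, only the compared arrays, the replicate number as a block, trended and robust eBayes, and leaving out each array. Sample labels and methods differ on strain, skin site and control treatment, which was not resolved.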

Additional observations from a re-analysis of the deposited data

How the results depend on the processing

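The 74 member differences with an unadjusted p under 0.05 in the main fit (limma) were followed through the alternatives, and all kept their direction. Member differences above that threshold were not followed. The tallies of values by side of the threshold further below cover the same 74 differences. The number of member probes called for FA in the wild type was 8, 5 with no filter, and 2 to 9 without single arrays (2 without WT FA 1 or WT FA 2, 4 without WT vehicle 2). In REDD1 KO mice it was 4, and 3 to 6 without single arrays. In the mean of both genotypes it was 13, and 8 to 13 without single arrays (8 without WT FA 1, also 8 without KO vehicle 2). Under vehicle, REDD1 KO against wild type had 0 calls, 1 with trended and robust eBayes (Fzd2) and 0 to 1 without single arrays. Under FA this comparison had 3 calls, 0 with median centring, 1 with no filter, 1 with the replicate block, 7 with trended and robust eBayes, and 0 to 5 without single arrays. The genotype difference of the FA effect had 0 calls throughout. The cause of these shifts was not tested. The deviations of same-numbered arrays correlated with r = -0.107 to 0.252 over the 6 pairs of groups, with 3 pairs between 0.215 and 0.252 and 3 below 0, and the labels give no shared origin, so the numbers were not taken to pair the arrays; with the replicate block the counts were 10, 3 and 13 for FA in the wild type, in REDD1 KO mice and in their mean. Over all genes, median centring gave 169 higher and 404 lower calls for FA in REDD1 KO mice (285 and 307 with quantile normalization) and 438 and 1182 in the mean (802 and 916). Single array omissions gave 510 values on the same side of the threshold, 20 that newly passed and 62 that no longer did; the other alternatives gave 561, 31 and 30. At a detection p under 0.01, 28 in place of 33 genes would be tested. Dim probes set the limit of what can be seen: 26 of the 71 member probes were detected on fewer than 2 arrays.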
